A study of Mus musculus with 16 samples.

Results

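The genes described here act in nucleotide excision repair, the pathway that removes ultraviolet photoproducts from DNA, and in the synthesis and ligation that close the gap it leaves. They were taken as a fixed list of gene symbols matched to the Ensembl identifiers of a deposited gene count table. All 38 listed genes were found among the 49585 genes of the table, and all 38 passed the filter on low counts that left 17741 genes for testing. Ercc1, Ercc4 and Xpa belong to the same pathway but not to the list, and their values are given beside it. The study measured RNA from the whole epidermis of mice aged 8 to 12 weeks, of the hairless stock SKH-1. In every group the epidermis was separated from the skin by heat shock.

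The 4 groups were C/EBPβ knockout epidermis 6 h after 100 mJ/cm2 of ultraviolet B (UVB), unexposed C/EBPβ knockout epidermis, K5Cre control epidermis 6 h after the same dose, and unexposed K5Cre control epidermis. Each group had 4 libraries. C/EBPβ is a transcription factor made by keratinocytes, and the labels describe its deletion as specific to the epidermis. The controls are labelled K5Cre, a Cre recombinase driven by the keratin 5 promoter, which is active in basal keratinocytes; the labels do not say whether the knockout mice carry the same Cre, nor do they name the deleted allele or give sex. The labels do not say either whether the libraries of a group came from separate animals, so the p-values measure the spread between these libraries, which may in part be technical. Libraries are numbered here in the order of deposition, and the numbers pair nothing across groups.

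In nucleotide excision repair, damage is found along a pair of routes. In global genome repair XPC, and UV-DDB bound to a CUL4A ubiquitin ligase, find distorted or UV-damaged DNA anywhere in the genome, whereas in transcription-coupled repair an RNA polymerase stalled at the lesion recruits CSB (Ercc6), CSA (Ercc8) and UVSSA. The routes meet at TFIIH, whose XPB (Ercc3) and XPD (Ercc2) subunits open the helix so that the damaged strand can be cut on either side and lifted out. RPA covers the undamaged strand, the clamp PCNA is loaded by RFC, a DNA polymerase fills the gap, and DNA ligase 1 or XRCC1 with DNA ligase 3 seals it. In epidermis the pathway is the main defence of keratinocytes against cyclobutane pyrimidine dimers and other UV photoproducts, and its inherited loss causes xeroderma pigmentosum in humans.

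The libraries held 32.98 to 53.3 M counts. The targeted gene matched the labels in all 16 libraries: Cebpb had 2.52, 3.04, 0.609 and 1.56 CPM in exposed knockout libraries, 0.702, 0.177, 0.543 and 0.875 CPM in unexposed knockout libraries, 253, 305, 286 and 319.7 CPM in exposed control libraries and 186, 160.1, 164 and 155 CPM in unexposed control libraries. CPM here are counts scaled to a common library total after TMM normalization. The 5 keratinocyte markers (Krt5, Krt14, Krt1, Krt10 and Trp63) summed to 13973 to 51958 CPM per library, beside 145.5 to 3224 CPM for hair follicle, 757 to 2739 CPM for sebocyte, 512 to 836 CPM for Langerhans cell, 67.2 to 1089 CPM for neutrophil and 50.5 to 99.5 CPM for T cell markers, and at most 52.9 CPM for melanocyte, 9.9997 CPM for fibroblast and 9.12 CPM for endothelium markers (5 genes a list). Some libraries stood apart in RNA composition. At equal depth, exposed control libraries 1, 3 and 4 had 17537, 16993 and 18095 detected genes and 8.57%, 9.59% and 9.65% mitochondrial counts, unexposed knockout library 4 had 18810 genes and 10.2%, and unexposed control library 3 had 18457 genes and 8.57%. The other libraries, which include every exposed knockout library, had 19212 to 21502 genes and 4.33% to 6.21%. Between the exposed groups, RNA composition and genotype thus cannot be fully told apart, nor can RNA composition and exposure in controls. Gm42418, a gene annotated over ribosomal RNA sequence, took 7.93% of counts in unexposed control library 2, 7.52% in unexposed knockout library 4 and 6.64% in exposed control library 4, and 0.653% to 4.08% elsewhere. A pair of fits left libraries out together, both chosen after the values were seen. The fit without 3 libraries dropped unexposed knockout library 4 and exposed control libraries 1 and 3, and kept exposed control library 4. The fit without 4 libraries dropped the library of fewest detected genes in each group, which was library 4 of both knockout groups and library 3 of both control groups. Calls lost in these fits, or without 1 library, are given beside the gene. In whole tissue, fewer cells of a type and less RNA per cell cannot be told apart.

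The comparison of exposed with unexposed epidermis asked which repair genes had a different transcript level 6 h after UVB. Pcna, the sliding clamp of DNA synthesis, rose 2.59-fold in knockout and 2.36-fold in control epidermis, the largest change among the 38 genes in either genotype. Genes for damage recognition (Ddb1, Rad23b, Cul4a), transcription-coupled repair (Xab2, Ercc6), TFIIH (Ercc2, Ercc3, Gtf2h5) and incision (Ercc5) rose as well, by 0.37 to 0.97 on the log2 scale. Rfc1, the large subunit of the clamp loader, and Rpa1, the large subunit of RPA, fell in both genotypes.

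In knockout epidermis 12 of the 38 genes rose and 2 fell at a Benjamini-Hochberg adjusted p under 0.05 (edgeR quasi-likelihood test, adjusted over all 17741 genes). That is 36.8% of them, beside 32.2% of all genes tested, and 31.6% rose and 5.26% fell, beside 18.1% and 14.1% of all genes. In control epidermis 10 rose and 8 fell, 47.4% of the 38 beside 35.8% of all genes; the 26.3% that rose stand beside 17.7% of all genes and the 21.1% that fell beside 18.0%. The median log2 fold change of the 38 genes was 0.24 in knockout and 0.08 in control epidermis, beside 0.01 and -0.02 for all genes tested. All exposed libraries lay above all unexposed ones for 12 of the genes in knockouts, where 19.7% of all genes did so, and for 10 of the genes in controls, where 16.3% did so. All exposed libraries lay below all unexposed ones for 4 in knockouts (16.1% of all genes) and for 5 in controls (17.5% of all genes).

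**Figure D1:**
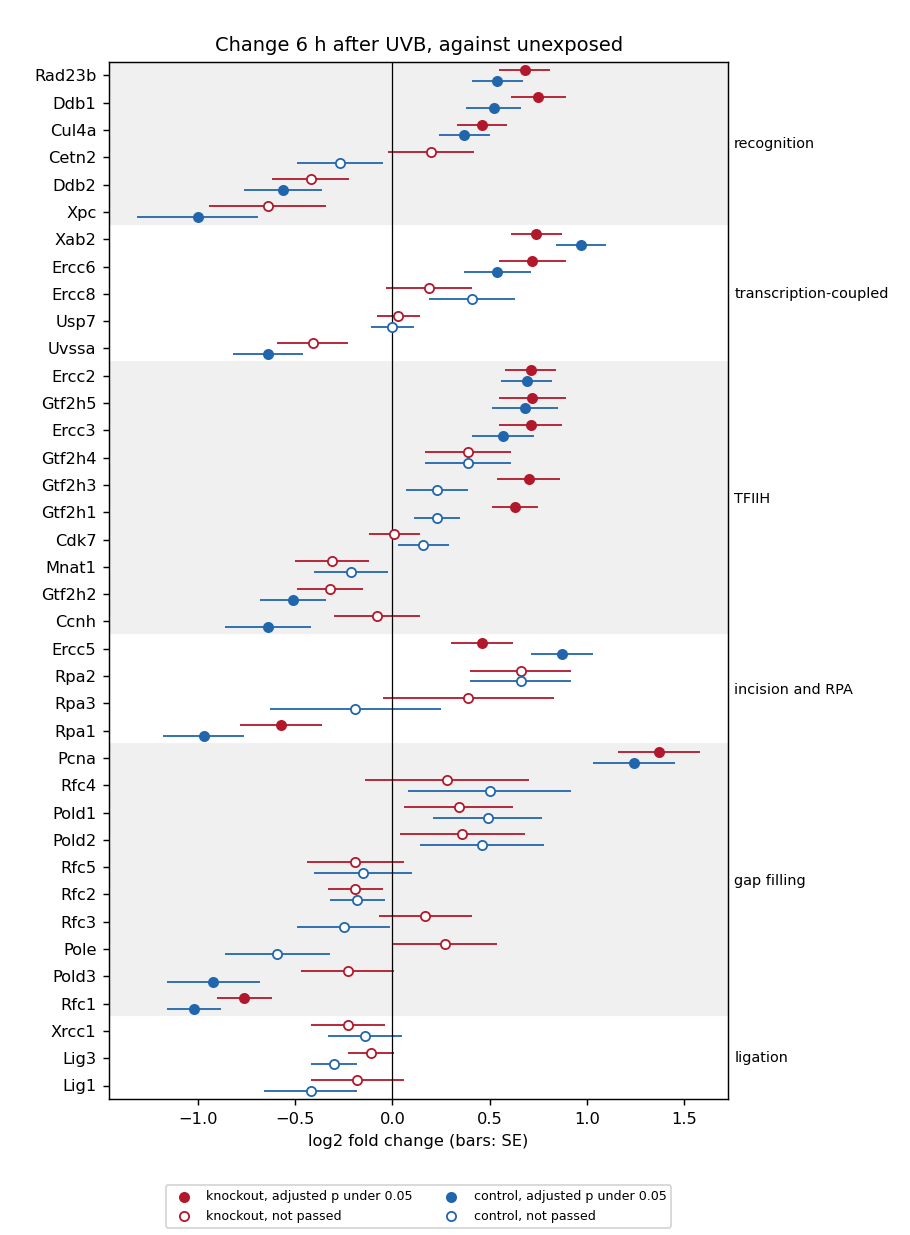
Log2 fold change of each of the 38 genes after UVB against unexposed, by role, in knockout and control epidermis (bars, SE; 4 libraries per group; filled points, adjusted p under 0.05). Pcna lies farthest to the right at 1.37 in knockout and 1.24 in control epidermis, and Rfc1 farthest to the left at -0.76 in knockout and -1.02 in control epidermis.

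The promoters of 5 genes are printed because they belong to genes that changed after UVB or differed between genotypes: the clamp Pcna and the transcription-coupled repair gene Xab2 rose, Rfc1 and Rpa1 fell, and Pold3 differed by genotype after exposure. Each is 300 bases around the start of the gene in RefSeq on GRCm38.p6, written 5′ to 3′ on the strand of the gene. The exon ranges are from GENCODE M21, whose start sites differ from those of RefSeq. The Rpa1 window lies wholly upstream of the GENCODE gene, and the C/EBP letters of Pcna lie inside the GENCODE gene. Pcna (ENSMUSG00000027342, exons within chr2:132249162-132253314) has its window at chr2:132253131-132253430 on the minus strand. Xab2 (ENSMUSG00000019470, exons within chr8:3608421-3621316) has its window at chr8:3621247-3621546 on the minus strand. Rfc1 (ENSMUSG00000029191, exons within chr5:65261850-65335670) has its window at chr5:65335590-65335889 on the minus strand. Rpa1 (ENSMUSG00000000751, exons within chr11:75298166-75348324) has its window at chr11:75348334-75348633 on the minus strand. Pold3 (ENSMUSG00000030726, exons within chr7:100082111-100121565) has its window at chr7:100121453-100121752 on the minus strand. Capitals mark letters of the motifs searched: a CCAAT box (CCAAT, or ATTGG on the other strand), a C/EBP motif (TTGCNNAA), an AP-1 motif (TGANTCA) and an E2F motif (TTTGGCGC, TTTCCCGC, TTTGCCGC or TTTCGCGC).

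Pcna: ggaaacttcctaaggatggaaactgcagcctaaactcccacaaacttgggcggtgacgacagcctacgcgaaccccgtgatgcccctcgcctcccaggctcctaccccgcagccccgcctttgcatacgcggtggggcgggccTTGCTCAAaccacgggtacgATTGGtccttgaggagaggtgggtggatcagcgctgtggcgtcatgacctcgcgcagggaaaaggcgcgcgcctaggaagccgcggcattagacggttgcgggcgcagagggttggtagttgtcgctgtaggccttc

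Xab2: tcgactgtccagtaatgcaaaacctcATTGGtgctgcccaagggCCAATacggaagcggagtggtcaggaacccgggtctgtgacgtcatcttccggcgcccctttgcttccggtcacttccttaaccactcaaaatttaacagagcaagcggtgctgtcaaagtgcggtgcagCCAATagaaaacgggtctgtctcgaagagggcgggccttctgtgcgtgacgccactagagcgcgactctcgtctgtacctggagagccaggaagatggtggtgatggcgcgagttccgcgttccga

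Rfc1: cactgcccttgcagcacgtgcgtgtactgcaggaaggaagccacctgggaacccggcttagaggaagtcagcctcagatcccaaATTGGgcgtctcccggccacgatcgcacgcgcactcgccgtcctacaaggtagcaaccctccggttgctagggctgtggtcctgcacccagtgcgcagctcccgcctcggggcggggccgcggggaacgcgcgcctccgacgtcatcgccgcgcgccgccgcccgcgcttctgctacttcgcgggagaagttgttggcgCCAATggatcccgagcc

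Rpa1: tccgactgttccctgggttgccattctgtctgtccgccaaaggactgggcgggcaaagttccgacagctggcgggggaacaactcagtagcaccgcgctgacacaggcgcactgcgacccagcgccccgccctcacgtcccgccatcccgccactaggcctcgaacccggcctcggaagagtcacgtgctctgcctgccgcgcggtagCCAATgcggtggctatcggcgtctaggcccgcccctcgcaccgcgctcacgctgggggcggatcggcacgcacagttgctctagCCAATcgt

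Pold3: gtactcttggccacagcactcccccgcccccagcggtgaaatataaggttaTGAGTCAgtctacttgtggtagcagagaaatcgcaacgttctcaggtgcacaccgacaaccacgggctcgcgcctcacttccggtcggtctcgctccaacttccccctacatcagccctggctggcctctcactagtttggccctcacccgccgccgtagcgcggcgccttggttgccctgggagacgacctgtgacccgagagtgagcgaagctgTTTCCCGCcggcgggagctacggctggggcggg

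Of the 38 genes, 32 had a promoter in the RefSeq table, and the 27025 genes with a promoter there give the background. Ercc3, Xpc, Ccnh, Rfc2, Ddb2 and Pole had none there and were not searched for any motif. A gene was counted if any promoter listed for it held the letters. The C/EBP letters of Pcna lay at position -107 from the RefSeq start site. Such letters were in 5 of the 32 genes (Cetn2, Lig3, Mnat1, Pcna and Pold2), 15.6% beside 12.2% of all genes with a promoter. Rfc1 and Rpa1, which fell, held CCAAT letters, as did Pcna and Xab2, which rose. The motif was in 16 of the 32 genes, 50.0% beside 41.1% of all genes with a promoter. E2F letters lay in the promoters of Lig1, Pold1, Pold3 and Rfc3, 12.5% of the set beside 2.6% of all, and the 4 genes act in gap filling or ligation. AP-1 letters were in Gtf2h4, Mnat1 and Pold3 (9.38% beside 8.97%). The p53 consensus was in no searched promoter of the set, and Ddb2 and Xpc were not among those searched. It was in only 4 of all genes with a promoter (0.0148%), so its absence from 32 genes says little. All motifs were searched on both strands. The windows of the set were richer in G and C, with a median of 64.8% beside 52.7% for all genes (first promoter of each gene). A match says only that the letters are present.

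Among the 6 genes of damage recognition, Ddb1, Rad23b and Cul4a rose in both genotypes, and Xpc and Ddb2 had lower values after UVB that passed the test in controls. Ddb1 encodes the large subunit of the UV-DDB damage sensor and the adaptor of CUL4 ubiquitin ligases. Ddb1 had 168, 175, 143 and 182 CPM in exposed knockout libraries, against 117, 115, 98.5 and 67.1 CPM in unexposed ones. Control libraries held 147, 159, 162 and 149 CPM after UVB, against 119, 99.1, 98.7 and 113 CPM unexposed. No exposed library overlapped an unexposed one of its genotype. Ddb1 rose by 0.75 on the log2 scale in knockouts (SE 0.14, edgeR adjusted p = 0.000385) and by 0.52 in controls (SE 0.14, adjusted p = 0.00731).

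Rad23b encodes a ubiquitin-binding partner that stabilises XPC. Rad23b had 152, 154, 144 and 168 CPM in exposed knockout libraries, against 110.5, 89.3, 103 and 81.4 CPM in unexposed ones. Control libraries held 124, 179, 143 and 112 CPM after UVB, against 92.2, 98.0, 94.2 and 99.6 CPM unexposed. The groups did not overlap within a genotype, and exposed control library 2 was the highest of all 16. The rise was 1.61-fold in knockouts (adjusted p = 0.000453) and 1.45-fold in controls (adjusted p = 0.00335), and the control log2 fold change was 0.54 with all libraries and 0.33 without exposed control library 2 (adjusted p = 0.0431). Cul4a, the scaffold of the ligase that carries UV-DDB, moved less. Cul4a had 83.2, 87.7, 75.1 and 104 CPM in exposed knockout libraries, against 65.3, 56.4, 59.1 and 73.6 CPM in unexposed ones. Control libraries held 90.9, 88.9, 93.1 and 78.6 CPM after UVB, against 72.2, 58.2, 71.3 and 70.6 CPM unexposed. It rose 1.38-fold in knockouts (log2 fold change 0.46 with SE 0.13 and adjusted p = 0.00687) and 1.29-fold in controls (log2 fold change 0.37 with SE 0.13 and adjusted p = 0.0264), with no overlap in either genotype. The Cul4a call in knockouts did not hold without exposed knockout library 4 (log2 fold change 0.31, adjusted p = 0.0807), and its adjusted p over 16 alternatives was 0.00436 to 0.0807. The Cul4a call in controls did not hold without exposed control library 1, 2 or 3 or unexposed control library 2, left out singly, (log2 fold change 0.30 to 0.34, adjusted p 0.0675 to 0.107), nor under a fit with no filter on low counts or the fit without 3 libraries (log2 fold change 0.25 to 0.30, adjusted p 0.125 to 0.217), and its adjusted p over 16 alternatives was 0.0194 to 0.217.

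XPC is the protein that first binds helix distortions in global genome repair. Xpc had 9.92, 8.60, 8.15 and 8.87 CPM in exposed knockout libraries, against 12.5, 15.5, 14.2 and 13.2 CPM in unexposed ones. Control libraries held 1.94, 6.66, 5.30 and 10.01 CPM after UVB, against 11.4, 11.6, 9.34 and 15.3 CPM unexposed. Exposed control library 1 was the lowest of the 16, and exposed control library 4, at 10.01 CPM, overlapped the unexposed controls; in knockouts all exposed libraries lay below all unexposed ones. Xpc fell 1.99-fold in controls (log2 fold change -1.0 with SE 0.31 and adjusted p = 0.0147), while the knockout value missed the threshold (log2 fold change -0.64 with SE 0.30 and adjusted p = 0.119). Without exposed control library 1 the control value was -0.71 (adjusted p = 0.019, edgeR). The Xpc call in controls did not hold without unexposed control library 4 (log2 fold change -0.86, adjusted p = 0.0542), nor under a fit of the compared groups alone, the fit without 3 libraries or the fit without 4 libraries (log2 fold change -1.05 to -0.57, adjusted p 0.0504 to 0.0697), and its adjusted p over 16 alternatives was 0.00118 to 0.0697. For Xpc in knockouts the threshold was passed under limma voom, a fit of the compared groups alone or the fit without 3 libraries (adjusted p 0.00463 to 0.0415), with adjusted p from 0.00463 to 0.22 over 16 alternatives.

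Ddb2, the subunit of UV-DDB that reads the lesion, is a p53 target in human cells. Ddb2 had 13.7, 10.1, 14.5 and 9.26 CPM in exposed knockout libraries, against 15.8, 18.4, 13.9 and 15.7 CPM in unexposed ones. Control libraries held 8.18, 9.496, 11.6 and 13.1 CPM after UVB, against 12.5, 13.9, 20.05 and 15.96 CPM unexposed. The exposed and unexposed libraries overlapped in both genotypes. Ddb2 fell 1.48-fold in controls (log2 fold change -0.56 with SE 0.20 and adjusted p = 0.035), and its value in knockouts did not pass (log2 fold change -0.42 with SE 0.20 and adjusted p = 0.123). The Ddb2 call in controls did not hold without exposed control library 1 or 2 or unexposed control library 3 or 4, left out singly, (log2 fold change -0.57 to -0.43, adjusted p 0.0534 to 0.133), nor under a fit of the compared groups alone, the fit without 3 libraries or the fit without 4 libraries (log2 fold change -0.57 to -0.47, adjusted p 0.0565 to 0.112), and its adjusted p over 16 alternatives was 0.0167 to 0.133. Acp2, on the opposite strand, shares 23.8% of the exon bases of Ddb2 and had log2 fold changes of -0.66 in knockouts and -0.85 in controls; the sources used here do not say whether the counting used strand. Cetn2, which encodes the centrin of the XPC complex, overlapped between exposed and unexposed libraries. Cetn2 stood at 15.3, 9.05, 10.96 and 11.01 CPM in exposed knockout libraries, against 11.9, 11.1, 8.57 and 8.81 CPM in unexposed ones. Control libraries held 9.42, 12.9, 6.70 and 12.7 CPM after UVB, against 12.4, 12.3, 11.6 and 13.9 CPM unexposed. Its log2 fold change was 0.20 in knockouts (adjusted p = 0.551) and -0.27 in controls (adjusted p = 0.367).

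The p53 response was read from 8 genes set beside Ddb2, Xpc and Pcna, and the 8 include Trp53, the gene of p53 itself. In knockouts 6 of the 8 rose and in controls 5, where 18.1% and 17.7% of all genes rose, with median log2 fold changes of 1.02 and 1.14. Cdkn1a, Mdm2, Ccng1, Phlda3 and Sesn2 rose in both genotypes. Trp53 passed in knockouts only, averaging 33.2 CPM exposed and 21.1 CPM unexposed, beside 21.9 and 23.1 CPM in controls. Bbc3 and Zmat3 did not pass in either genotype. Cdkn1a, the cell cycle inhibitor p21, rose by 1.62 in knockouts (SE 0.18, edgeR adjusted p = 1.23e-06) and by 1.84 in controls (SE 0.18, adjusted p = 1.78e-07). Ccng1, another p53 target, rose by 2.33 in knockouts and 2.30 in controls (adjusted p = 3.3e-07 and 1.98e-07). Pcna rose in the same libraries, whereas Ddb2 and Xpc had values below 0 in both genotypes.

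Of the 5 genes of transcription-coupled repair, Xab2 and Ercc6 rose in both genotypes, Uvssa was lower in exposed controls, and Ercc8 and Usp7 did not pass the test. Xab2 encodes a protein that binds XPA and also takes part in splicing. Xab2 had 55.2, 70.7, 58.6 and 68.2 CPM in exposed knockout libraries, against 37.0, 39.7, 41.4 and 33.2 CPM in unexposed ones. Control libraries held 79.6, 66.0, 78.2 and 59.3 CPM after UVB, against 42.4, 32.7, 35.1 and 34.6 CPM unexposed. Every exposed library exceeded every unexposed one, whichever the genotype. Xab2 rose 1.67-fold in knockouts (log2 fold change 0.74 with SE 0.13 and adjusted p = 0.000207) and 1.96-fold in controls (log2 fold change 0.97 with SE 0.13 and adjusted p = 1.03e-05). Camsap3, on the opposite strand, overlaps 12.2% of the exon bases of Xab2, and its log2 fold changes were -0.30 in knockouts and -0.50 in controls.

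Ercc6 encodes CSB, the ATPase that binds stalled RNA polymerase. Ercc6 had 55.9, 53.3, 43.9 and 70.0 CPM in exposed knockout libraries, against 33.7, 28.0, 41.8 and 31.9 CPM in unexposed ones. Control libraries held 63.4, 86.3, 51.8 and 52.4 CPM after UVB, against 42.0, 46.3, 46.9 and 39.0 CPM unexposed. Exposed and unexposed libraries did not overlap within a genotype, and exposed control library 2 was the highest. The rise was 1.65-fold in knockouts (log2 fold change 0.72 with SE 0.17 and adjusted p = 0.00259) and 1.46-fold in controls (log2 fold change 0.54 with SE 0.17 and adjusted p = 0.0171). The Ercc6 call in knockouts did not hold under the fit without 4 libraries (log2 fold change 0.51, adjusted p = 0.0542), and its adjusted p over 16 alternatives was 0.00142 to 0.0542. The Ercc6 call in controls did not hold without exposed control library 2 or unexposed control library 4, left out singly, (log2 fold change 0.30 to 0.49, adjusted p 0.0566 to 0.17), and its adjusted p over 16 alternatives was 0.0105 to 0.17. Ercc8, which encodes CSA, the substrate receptor of a CUL4 ligase, was less abundant. Ercc8 had 11.6, 8.07, 8.40 and 9.77 CPM in exposed knockout libraries, against 8.91, 7.47, 7.97 and 8.97 CPM in unexposed ones. Control libraries held 6.54, 9.38, 13.9 and 13.1 CPM after UVB, against 8.49, 8.66, 7.70 and 7.57 CPM unexposed. Its libraries overlapped in both genotypes, with log2 fold changes of 0.19 in knockouts (adjusted p = 0.588) and 0.41 in controls (adjusted p = 0.166). For Ercc8 in controls the threshold was passed without exposed control library 1 (adjusted p = 0.0352), with adjusted p from 0.0352 to 0.541 over 16 alternatives.

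UVSSA brings TFIIH and the deubiquitinase USP7 to the stalled polymerase. Uvssa had 43.9, 38.3, 60.6 and 45.1 CPM in exposed knockout libraries, against 51.2, 52.3, 59.7 and 87.0 CPM in unexposed ones. Control libraries held 33.8, 35.0, 29.9 and 44.5 CPM after UVB, against 43.9, 57.0, 58.5 and 63.6 CPM unexposed. The highest unexposed value was that of knockout library 4, and exposed and unexposed libraries overlapped in both genotypes. Uvssa fell 1.56-fold in controls (log2 fold change -0.64 with SE 0.18 and adjusted p = 0.00895) under all 16 alternatives, and the knockout value did not pass (log2 fold change -0.41 with SE 0.18 and adjusted p = 0.0912). For Uvssa in knockouts the threshold was passed without exposed knockout library 3 (adjusted p = 0.0279) and under upper-quartile scaling (adjusted p = 0.0486), with adjusted p from 0.0279 to 0.386 over 16 alternatives. Usp7, the deubiquitinase that protects CSB, had overlapping values in exposed and unexposed libraries. Usp7 had 241, 233, 250.5 and 271 CPM in exposed knockout libraries, against 234, 199.6, 273 and 266 CPM in unexposed ones. Control libraries held 259, 291, 263 and 265 CPM after UVB, against 258, 264, 284 and 275 CPM unexposed. Its log2 fold change was 0.03 in knockouts (SE 0.11, adjusted p = 0.865) and -0.00 in controls (SE 0.11, adjusted p = 0.99).

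TFIIH, which serves repair and transcription, contributed 10 genes, of which 5 rose in knockouts, where 18.1% of all genes did, and 3 rose and 2 fell in controls, where 17.7% and 18.0% of all genes did. Both core helicases rose in both genotypes. Ercc2 encodes XPD, the helicase that verifies the damage. Ercc2 had 49.6, 55.8, 41.9 and 58.2 CPM in exposed knockout libraries, against 30.7, 32.4, 34.9 and 27.8 CPM in unexposed ones. Control libraries held 49.6, 55.1, 45.7 and 45.3 CPM after UVB, against 34.5, 30.1, 29.4 and 26.9 CPM unexposed. All 8 exposed libraries lay above all 8 unexposed ones. Ercc2 rose 1.63-fold in knockouts (log2 fold change 0.71 with SE 0.13 and adjusted p = 0.000289) and 1.62-fold in controls (log2 fold change 0.69 with SE 0.13 and adjusted p = 0.000312). Opposite-strand exons of Klc3 overlap 17.8% of the exon bases of Ercc2 and those of Gm26852 24.6%; Klc3 had log2 fold changes of 0.29 in knockouts and 0.06 in controls.

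Ercc3 encodes XPB, the translocase that opens the helix. Ercc3 had 28.7, 27.8, 30.8 and 35.3 CPM in exposed knockout libraries, against 22.1, 17.04, 21.1 and 14.4 CPM in unexposed ones. Control libraries held 33.1, 39.95, 29.3 and 29.7 CPM after UVB, against 21.6, 21.5, 18.9 and 26.8 CPM unexposed. Exposed and unexposed libraries were separate within each genotype. Ercc3 rose 1.64-fold in knockouts (log2 fold change 0.71 with SE 0.16 and adjusted p = 0.0016) and 1.49-fold in controls (log2 fold change 0.57 with SE 0.16 and adjusted p = 0.00819). The Ercc3 call in controls did not hold without exposed control library 2 (log2 fold change 0.41, adjusted p = 0.0674), and its adjusted p over 16 alternatives was 0.00333 to 0.0674. Gtf2h5, whose small product keeps the complex stable, rose by about the same amount. Gtf2h5 had 37.3, 46.6, 38.4 and 43.4 CPM in exposed knockout libraries, against 31.6, 24.2, 26.6 and 18.0 CPM in unexposed ones. Control libraries held 39.7, 46.8, 40.01 and 27.4 CPM after UVB, against 23.5, 24.6, 23.7 and 24.6 CPM unexposed. The rise was 1.65-fold in knockouts (adjusted p = 0.00211) and 1.60-fold in controls (adjusted p = 0.00338), again with no overlap, although exposed control library 4 lay near the unexposed values.

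Gtf2h1 and Gtf2h3, subunits of the TFIIH core, passed the test in knockouts but not in controls. Gtf2h1 had 50.0, 52.7, 48.7 and 62.8 CPM in exposed knockout libraries, against 35.5, 32.9, 34.1 and 35.7 CPM in unexposed ones. Control libraries held 47.9, 47.9, 36.4 and 39.2 CPM after UVB, against 35.5, 37.4, 38.6 and 35.1 CPM unexposed. The exposed knockouts lay above all other libraries of this gene, and the controls overlapped. Gtf2h1 rose 1.55-fold in knockouts (log2 fold change 0.63 with SE 0.12 and adjusted p = 0.00046), and the control value was 0.23 (SE 0.12, adjusted p = 0.171). Gtf2h3 had 28.0, 31.3, 23.6 and 30.0 CPM in exposed knockout libraries, against 19.2, 16.7, 19.2 and 14.4 CPM in unexposed ones. Control libraries held 15.9, 21.6, 23.9 and 18.8 CPM after UVB, against 18.8, 18.2, 14.8 and 16.6 CPM unexposed. Exposed knockout libraries again lay above the unexposed ones, while the control libraries overlapped. Gtf2h3 rose 1.62-fold in knockouts (log2 fold change 0.70 with SE 0.16 and adjusted p = 0.00168), beside 0.23 in controls (SE 0.16, adjusted p = 0.286). Tested directly, the difference of the UVB responses, knockout minus control, was 0.41 for Gtf2h1 (SE 0.17, adjusted p = 0.797) and 0.47 for Gtf2h3 (SE 0.22, adjusted p = 0.844), so a difference between genotypes was not shown.

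Gtf2h2, the core subunit that stimulates XPD, went the other way. Gtf2h2 had 14.3, 13.6, 14.7 and 15.1 CPM in exposed knockout libraries, against 19.3, 16.9, 18.4 and 17.3 CPM in unexposed ones. Control libraries held 8.40, 13.5, 13.2 and 15.7 CPM after UVB, against 16.5, 20.6, 19.1 and 16.3 CPM unexposed. Exposed libraries lay below unexposed ones in both genotypes, with exposed control library 1 the lowest. Gtf2h2 fell 1.43-fold in controls (log2 fold change -0.51 with SE 0.17 and adjusted p = 0.0231), and its value in knockouts did not pass (log2 fold change -0.32 with SE 0.17 and adjusted p = 0.178). The Gtf2h2 call in controls did not hold without exposed control library 1 or unexposed control library 2 or 3, left out singly, (log2 fold change -0.50 to -0.37, adjusted p 0.0503 to 0.0774), nor under a fit of the compared groups alone, the fit without 3 libraries or the fit without 4 libraries (log2 fold change -0.53 to -0.37, adjusted p 0.0636 to 0.113), and its adjusted p over 16 alternatives was 0.0085 to 0.113. Ccnh encodes cyclin H of the CDK-activating kinase, the TFIIH module that phosphorylates RNA polymerase. Ccnh had 12.8, 9.35, 6.95 and 8.77 CPM in exposed knockout libraries, against 8.91, 11.1, 8.43 and 11.6 CPM in unexposed ones. Control libraries held 6.37, 8.70, 4.96 and 8.34 CPM after UVB, against 9.89, 10.1, 12.6 and 11.5 CPM unexposed. Exposed controls lay below unexposed ones, whereas the knockout groups overlapped. Ccnh fell 1.56-fold in controls (log2 fold change -0.64 with SE 0.22 and adjusted p = 0.0311), beside -0.08 in knockouts (adjusted p = 0.85), with a difference of 0.56 between the responses (SE 0.32, adjusted p = 0.888). The Ccnh call in controls did not hold without exposed control library 1 or 3 or unexposed control library 3 or 4, left out singly, (log2 fold change -0.62 to -0.50, adjusted p 0.0666 to 0.0923), nor under the fit without 3 libraries or the fit without 4 libraries (log2 fold change -0.43, adjusted p 0.187 to 0.198), and its adjusted p over 16 alternatives was 0.0144 to 0.198. Its kinase partner Cdk7 and the assembly factor Mnat1 did not pass, with log2 fold changes of 0.01 and -0.31 in knockouts and 0.16 and -0.21 in controls; nor did the core subunit Gtf2h4, at 0.39 in knockouts and 0.39 in controls. For Cdk7 in controls the threshold was passed under the fit without 4 libraries (adjusted p = 0.0437), with adjusted p from 0.0437 to 0.774 over 16 alternatives.

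Ercc5 encodes XPG, a nuclease that cuts the damaged strand beside the lesion. Ercc5 had 54.8, 45.5, 55.0 and 77.6 CPM in exposed knockout libraries, against 37.6, 39.7, 47.6 and 44.1 CPM in unexposed ones. Control libraries held 84.7, 68.5, 90.3 and 58.5 CPM after UVB, against 38.9, 37.7, 41.0 and 47.6 CPM unexposed. Exposed controls lay well above unexposed ones, while exposed knockout library 2 overlapped the unexposed knockouts and library 4 was the highest of its group. Ercc5 rose 1.83-fold in controls (log2 fold change 0.87 with SE 0.16 and adjusted p = 0.000257) under all 16 alternatives, with 0.57 in the fit without 3 libraries as the smallest size. In knockouts it rose 1.38-fold (log2 fold change 0.46 with SE 0.16 and adjusted p = 0.0318). The Ercc5 call in knockouts did not hold without exposed knockout library 4 or unexposed knockout library 1, 2 or 4, left out singly, (log2 fold change 0.24 to 0.44, adjusted p 0.0743 to 0.297), nor under the size factors of DESeq2, upper-quartile scaling, a fit with no filter on low counts, DESeq2, a fit of the compared groups alone, the fit without 3 libraries or the fit without 4 libraries (log2 fold change 0.26 to 0.43, adjusted p 0.0523 to 0.279), and its adjusted p over 16 alternatives was 0.0152 to 0.297. The difference of the UVB responses was -0.41 (SE 0.23, adjusted p = 0.888).

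Replication protein A, which covers single-stranded DNA, has 3 subunits that did not move alike. Rpa1, the large DNA-binding subunit, fell. Rpa1 had 23.9, 21.5, 17.2 and 14.6 CPM in exposed knockout libraries, against 30.7, 28.3, 27.1 and 28.5 CPM in unexposed ones. Control libraries held 7.10, 16.02, 14.2 and 14.2 CPM after UVB, against 24.4, 22.2, 21.6 and 32.5 CPM unexposed. Exposed libraries lay below unexposed ones in both genotypes, and exposed control library 1 was the lowest. The fall was 1.96-fold in controls (log2 fold change -0.97 with SE 0.21 and adjusted p = 0.00118) and 1.49-fold in knockouts (log2 fold change -0.57 with SE 0.21 and adjusted p = 0.0429). In controls it held in all 16 alternatives, with -0.78 as the smallest size. The Rpa1 call in knockouts did not hold without exposed knockout library 2, 3 or 4 or unexposed knockout library 1, 2 or 3, left out singly, (log2 fold change -0.63 to -0.52, adjusted p 0.056 to 0.103), nor under the fit without 4 libraries (log2 fold change -0.52, adjusted p = 0.134), and its adjusted p over 16 alternatives was 0.00797 to 0.134. Rpa2, the subunit phosphorylated after DNA damage, had values above 0 that missed the threshold, 0.66 in knockouts (SE 0.26, adjusted p = 0.0544) and 0.66 in controls (SE 0.26, adjusted p = 0.0514). For Rpa2 in knockouts the threshold was passed without unexposed knockout library 2 (adjusted p = 0.0479) and under limma voom or a fit of the compared groups alone (adjusted p 0.0166 to 0.0257), with adjusted p from 0.0166 to 0.19 over 16 alternatives. For Rpa2 in controls the threshold was passed without exposed control library 3 or unexposed control library 4 (adjusted p 0.00724 to 0.0273) and under the size factors of DESeq2, DESeq2 or the fit without 3 libraries (adjusted p 0.029 to 0.0456), with adjusted p from 0.00724 to 0.202 over 16 alternatives. Rpa3, the smallest subunit, averaged 4.24 ± 0.819 CPM in exposed knockouts, 3.22 ± 1.18 CPM in unexposed knockouts, 3.37 ± 2.23 CPM in exposed controls and 3.83 ± 1.52 CPM in unexposed controls (SD, n = 4 each), and did not pass in either genotype.

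Gap filling gave the largest change in each direction. Pcna had 27.0, 26.5, 17.5 and 26.4 CPM in exposed knockout libraries, against 10.2, 12.3, 9.33 and 5.72 CPM in unexposed ones. Control libraries held 19.96, 19.9, 20.6 and 18.98 CPM after UVB, against 9.34, 6.12, 9.34 and 8.81 CPM unexposed. Each exposed library exceeded each unexposed library of both genotypes, although exposed knockout library 3, at 17.5 CPM, lay apart from the other 3 of its group. Pcna rose 2.59-fold in knockouts (log2 fold change 1.37 with SE 0.21 and adjusted p = 4.23e-05) and 2.36-fold in controls (log2 fold change 1.24 with SE 0.21 and adjusted p = 9.95e-05). Rfc1, the large subunit of the loader that places PCNA on DNA, went down in the same libraries. Rfc1 had 24.1, 25.0, 28.9 and 21.4 CPM in exposed knockout libraries, against 39.3, 41.9, 36.2 and 51.4 CPM in unexposed ones. Control libraries held 21.8, 19.4, 23.0 and 21.6 CPM after UVB, against 43.2, 48.3, 39.2 and 43.7 CPM unexposed. Every exposed library lay below every unexposed one. Rfc1 fell 1.70-fold in knockouts (log2 fold change -0.76 with SE 0.14 and adjusted p = 0.000183) and 2.03-fold in controls (log2 fold change -1.02 with SE 0.14 and adjusted p = 7.18e-06). The changes of Pcna and Rfc1 held in every alternative in both genotypes.

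**Figure D2:**
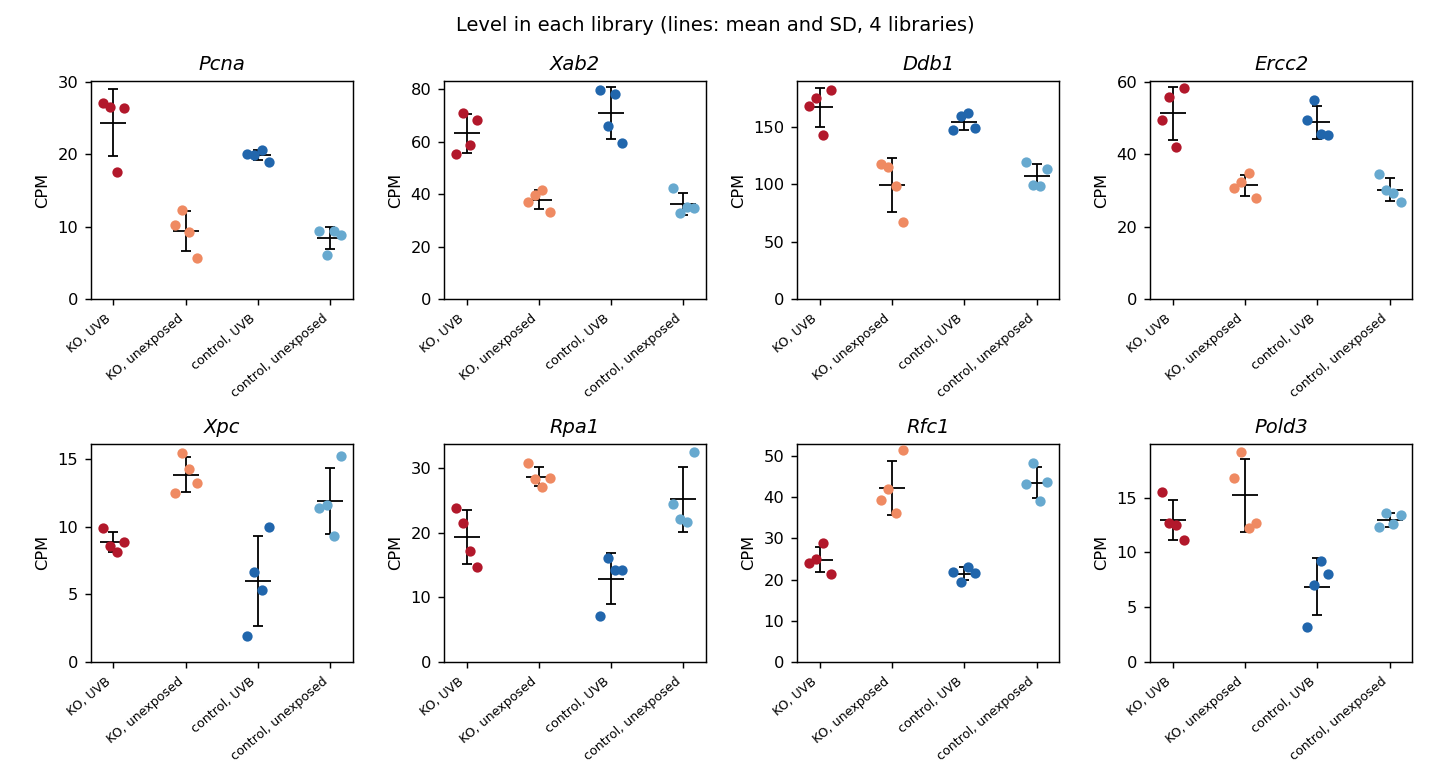
Level of 8 genes in each library (CPM; points, libraries; lines, mean and SD of 4 libraries), with exposed groups left of unexposed ones within each genotype. Pcna, Xab2, Ddb1 and Ercc2 are higher in exposed libraries, Rfc1 and Rpa1 are lower, and Pold3 is lowest in the exposed controls, at 3.22 to 9.19 CPM.

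No fall like that of Rfc1 was called for the 4 small subunits of the clamp loader. Rfc2, Rfc3, Rfc4 and Rfc5 had log2 fold changes of -0.19, 0.17, 0.28 and -0.19 in knockouts and -0.18, -0.25, 0.50 and -0.15 in controls. Their SEs were 0.14, 0.24, 0.42 and 0.25 in each genotype. Rfc4 and Rfc5 were low, at 1.21 to 8.76 CPM over all libraries. Opposite-strand exons of Lat2, Eif4a2 and Wsb2 overlap 15.1% of the exon bases of Rfc2, 12.7% of Rfc4 and 10.7% of Rfc5. After UVB, Lat2 had log2 fold changes of -0.84 in knockouts and -0.51 in controls, Eif4a2 0.84 and 0.71, and Wsb2 0.90 and 0.78. Over all libraries Eif4a2 had 124675 counts and Rfc4 2372. Whether reads of these genes entered the counts of the loader subunits was not tested.

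Pold3, an accessory subunit of DNA polymerase delta, was lower in exposed controls. Pold3 had 15.5, 12.7, 12.5 and 11.2 CPM in exposed knockout libraries, against 16.8, 19.1, 12.2 and 12.7 CPM in unexposed ones. Control libraries held 3.22, 7.05, 9.19 and 7.99 CPM after UVB, against 12.3, 13.6, 12.6 and 13.4 CPM unexposed. The exposed controls did not overlap the unexposed ones, and library 1 was the lowest; in knockouts the groups overlapped. Pold3 fell 1.89-fold in controls (log2 fold change -0.92 with SE 0.24 and adjusted p = 0.00549), in all 16 alternatives, with -0.69 as the smallest size. In knockouts its value was -0.23 (SE 0.24, adjusted p = 0.528), and the difference of the responses was 0.69 (SE 0.34, adjusted p = 0.855). Pold1, the catalytic subunit of the same polymerase, overlapped between groups. Pold1 had 12.3, 9.69, 10.5 and 8.77 CPM in exposed knockout libraries, against 7.13, 9.48, 7.04 and 8.90 CPM in unexposed ones. Control libraries held 6.32, 8.67, 16.2 and 7.92 CPM after UVB, against 9.67, 6.36, 4.19 and 7.59 CPM unexposed. Exposed control library 3 was the highest, and the log2 fold changes of 0.34 in knockouts and 0.49 in controls did not pass (adjusted p = 0.399 and 0.187). Pold2, a further subunit, was at 0.36 and 0.46, without a call. Pole, the catalytic subunit of polymerase epsilon, had 0.27 in knockouts (adjusted p = 0.503) and -0.59 in controls (adjusted p = 0.0997). For Pole in controls the threshold was passed without exposed control library 2 (adjusted p = 0.0282), with adjusted p from 0.0282 to 0.542 over 16 alternatives.

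No ligation gene passed the test in either genotype. Lig1, the replicative DNA ligase, overlapped between exposed and unexposed libraries. Lig1 had 15.9, 12.9, 10.5 and 8.34 CPM in exposed knockout libraries, against 10.4, 13.4, 10.6 and 19.6 CPM in unexposed ones. Control libraries held 7.10, 10.1, 7.12 and 10.98 CPM after UVB, against 13.4, 10.5, 13.3 and 9.96 CPM unexposed. Its log2 fold change was -0.18 in knockouts (adjusted p = 0.632) and -0.42 in controls (adjusted p = 0.195). Lig3 and its scaffold Xrcc1 had values of -0.11 and -0.23 in knockouts and -0.30 and -0.14 in controls, with adjusted p of 0.0537 for Lig3 in controls. For Lig3 in controls the threshold was passed without exposed control library 2 or unexposed control library 1 (adjusted p 0.0189 to 0.0196) and under upper-quartile scaling or DESeq2 (adjusted p 0.0332 to 0.0473), with adjusted p from 0.0189 to 0.242 over 16 alternatives. For Xrcc1 in controls the threshold was passed under the fit without 4 libraries (adjusted p = 0.0396), with adjusted p from 0.0396 to 0.967 over 16 alternatives. Rffl, on the opposite strand, overlaps 25.1% of the exon bases of Lig3 and had -0.87 in knockouts and -0.51 in controls.

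The responses of the genotypes, which rest on separate libraries, were set side by side. All 10 genes that rose in controls also rose in knockouts, where they made up 83.3% of the 12; among all genes tested the overlap was 78.6% of the knockout list and 80.1% of the control list. Both genes that fell in knockouts fell in controls, where they were 25.0% of the 8, beside 79.6% and 62.3% for all genes. Over the 38 genes the log2 fold changes of the genotypes had Pearson r = 0.89 and Spearman rho = 0.88, beside r = 0.63 and rho = 0.69 over all genes. The sign was the same in 33 of the 38, beside 14136 of the 17741 genes tested. These values are a description across genes that share libraries.

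The test of the difference between the UVB responses called none of the 38 genes and 0.0% of all genes (edgeR). At an unadjusted p under 0.05 it gave 3 of the 38, Gtf2h1, Gtf2h3 and Pole, and 1043 of the 17741 genes, 7.89% beside 5.88%; DESeq2 called 31 genes, none of them in the set. The largest difference in the set was that of Pole, 0.86 (SE 0.38, adjusted p = 0.803), and the median over the 38 was 0.14, beside 0.05 for all genes. The falls that passed in controls and not in knockouts (Ccnh, Ddb2, Gtf2h2, Pold3, Uvssa and Xpc) are thus not shown to be smaller in knockouts.

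The comparison of knockout with control epidermis asked which repair genes had a different level in epidermis that lacks C/EBPβ. In unexposed epidermis none of the 38 passed the test, where 2.1% of all genes did (0.964% higher and 1.14% lower). At an unadjusted p under 0.05 there were 2, Rfc2 and Ercc6, 5.26% beside 12.4% of all genes. Rfc2, a small subunit of the clamp loader, had 29.2, 29.4, 25.6 and 25.0 CPM in unexposed knockouts, against 20.1, 20.01, 20.2 and 22.1 CPM in unexposed controls. Every knockout library exceeded every control library (log2 fold change 0.41 with SE 0.14 and adjusted p = 0.165, edgeR). Rfc5, another loader subunit, had 8.22, 7.08, 8.13 and 7.999 CPM in unexposed knockouts, against 5.86, 5.84, 5.28 and 6.94 CPM in unexposed controls, also without overlap (log2 fold change 0.39 with SE 0.25 and adjusted p = 0.615). These were the 2 genes whose knockout libraries all lay higher, where 4.64% of all genes did so; none had all knockout libraries lower, where 5.36% did so. Ercc6 was at -0.36 (SE 0.17, adjusted p = 0.393) with overlapping libraries. The median over the 38 genes was 0.03, beside 0.00 for all genes.

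After UVB 1 of the 38 genes was called, 2.63% beside 4.68% of all genes (2.36% higher and 2.32% lower). Pold3 was 1.89-fold higher in exposed knockouts, at 15.5, 12.7, 12.5 and 11.2 CPM, than in exposed controls, at 3.22, 7.05, 9.19 and 7.99 CPM (log2 fold change 0.92 with SE 0.24 and adjusted p = 0.0337, edgeR). All knockout libraries lay above all control libraries. The Pold3 call after UVB did not hold without exposed knockout library 1, 2 or 3 or exposed control library 1, left out singly, (log2 fold change 0.67 to 0.94, adjusted p 0.0617 to 0.103), nor under a fit of the compared groups alone or the fit without 3 libraries (log2 fold change 0.80 to 0.91, adjusted p 0.0512 to 0.107), and its adjusted p over 16 alternatives was 0.0114 to 0.107. This comparison uses the same exposed control libraries as the fall of Pold3 in controls, so both values rest on them. In unexposed epidermis the Pold3 value was 0.23 (adjusted p = 0.847).

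Pole had 15.2, 8.28, 10.03 and 7.06 CPM in exposed knockouts, against 3.66, 7.89, 4.23 and 7.02 CPM in exposed controls, and the libraries overlapped (log2 fold change 0.83 with SE 0.27 and adjusted p = 0.0808). For Pole between the exposed groups the threshold was passed without exposed control library 2 (adjusted p = 0.0323), with adjusted p from 0.0323 to 0.464 over 16 alternatives. Gtf2h3 (0.49, adjusted p = 0.0758), Rpa1 (0.58, adjusted p = 0.117) and Gtf2h1 (0.32, adjusted p = 0.142) also had higher values in exposed knockouts, and only Gtf2h1 of these had no overlap. For Rfc2 between the exposed groups the threshold was passed without exposed knockout library 4 (adjusted p = 0.0364), with adjusted p from 0.0364 to 0.326 over 16 alternatives. For Cdk7 between the exposed groups the threshold was passed under the fit without 4 libraries (adjusted p = 0.0351), with adjusted p from 0.0351 to 0.359 over 16 alternatives. Ercc5 had the lowest value, -0.37 (adjusted p = 0.193). In all, 9 of the 38 had an unadjusted p under 0.05, 23.7% beside 20.3% of all genes, and 2 (Pold3 and Gtf2h1) had every knockout library higher, where 6.47% of all genes did so; none had every knockout library lower, where 4.84% did so. The median over the 38 was 0.15, beside 0.04 for all genes.

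**Figure D3:**
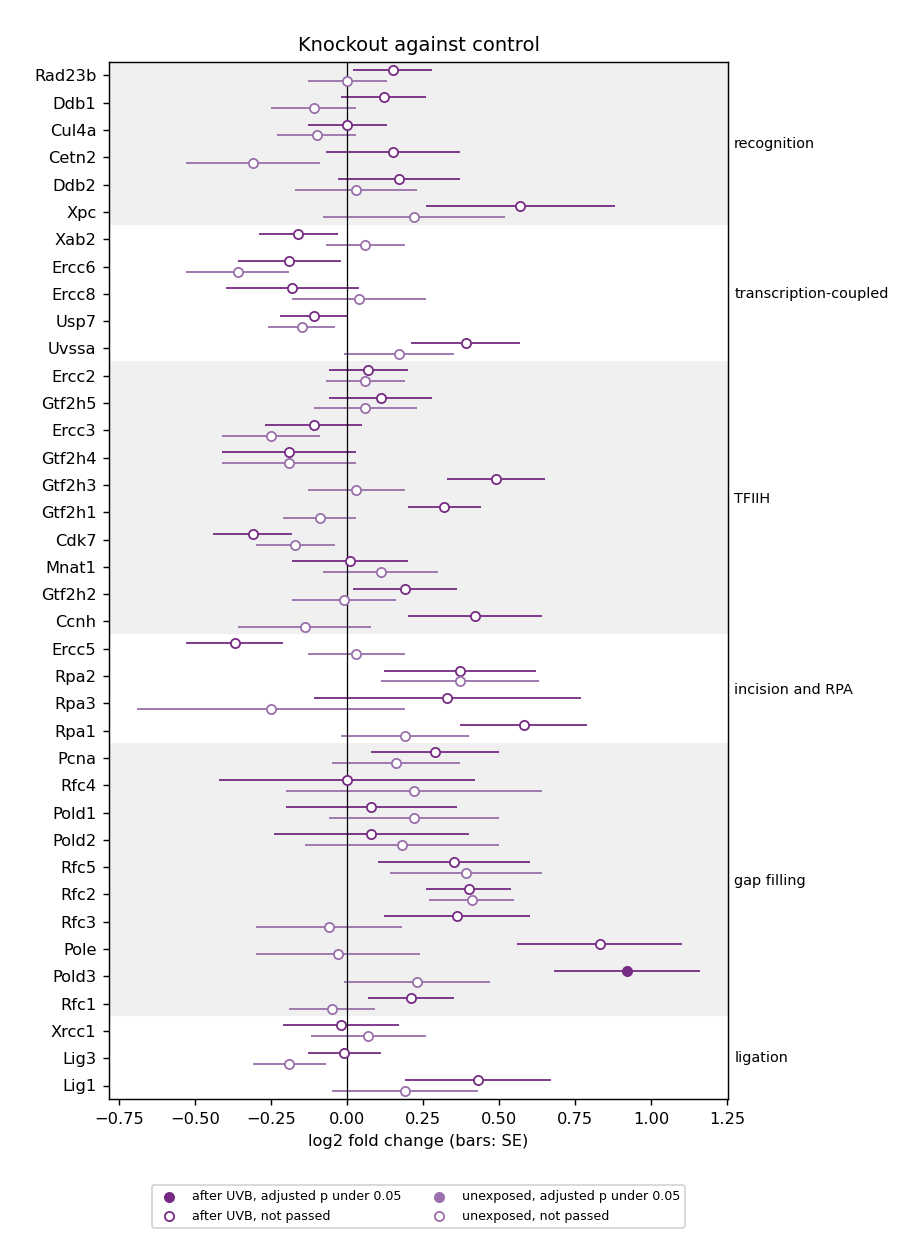
Log2 fold change of each of the 38 genes in knockout against control epidermis, by role, after UVB and unexposed (bars, SE; 4 libraries per group; filled points, adjusted p under 0.05). Pold3 after UVB, at 0.92, is the filled point, and Pole lies next to it at 0.83.

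Proliferation genes were set beside the gap-filling genes, since PCNA, RFC, the polymerases and ligase 1 also replicate DNA. The 20 listed genes summed to 235 to 317 CPM in exposed knockouts, 229 to 262 CPM in unexposed knockouts, 179 to 229 CPM in exposed controls and 216 to 223 CPM in unexposed controls, and Cdt1 was at 0 counts in every library. Of 19 tested, 1 was higher in exposed knockouts than in exposed controls: Mki67, a marker of cycling cells (log2 fold change 0.82 with SE 0.18 and adjusted p = 0.0106). Of all genes, 2.36% were higher there. The median log2 fold change of the 19 was 0.72 in that comparison and 0.27 in unexposed epidermis, beside 0.04 and 0.00 for all genes. After UVB, 4 rose and 1 fell in knockouts, where 18.1% and 14.1% of all genes did, with a median of 0.34 beside 0.01. In controls 1 rose and 2 fell, where 17.7% and 18.0% of all genes did, with a median of -0.17 beside -0.02. Pold3 and Pole had higher values in exposed knockouts than in exposed controls, as given above, and the part of proliferation in them was not tested.

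Marker genes of cell types also differed between the groups. The summed level of 5 neutrophil markers was 309 to 571 CPM in exposed knockouts, 90.8 to 189.6 CPM in unexposed knockouts, 669 to 1089 CPM in exposed controls and 67.2 to 228 CPM in unexposed controls. S100a8 and S100a9, which keratinocytes also make, rose in both genotypes and Cxcr2 in controls, while 1 of the 5 was at 0 counts in every group other than the exposed controls. Of the sebocyte markers, Fasn rose in both genotypes and Krt79 in knockouts, with medians over the list of 1.22 in knockouts and 0.67 in controls on the log2 scale. Of the hair follicle markers, Krt75 rose in knockouts and none passed in controls, with medians of 1.91 and 0.95. Cd207 of the Langerhans cell markers rose in both genotypes, and the medians were 0.52 in knockouts and 0.27 in controls. Of the T cell markers, Trdc rose in knockouts, and Cd3g and Ptprc fell in controls, with medians of 0.24 and -0.28. Between the exposed groups, Cd74 and H2-Aa of the Langerhans cell markers were higher in knockouts (median of the list 0.77), as were Krt79 and the basal keratinocyte keratin Krt5 (log2 fold change 1.14, adjusted p = 0.00641, edgeR). Krt5 changed by -0.80 after UVB in controls (adjusted p = 0.00819, edgeR), where the median of the 5 keratinocyte markers was 0.43. Between the exposed groups the median of these markers was 0.24. Between the unexposed groups, Krt14, Cd86 and Cxcr2 were higher in knockouts. The medians of their lists were 0.26 for keratinocyte, 0.51 for Langerhans cell and -0.12 for neutrophil markers. In controls the melanocyte marker Pmel rose after UVB, with a median of 0.64 over its list. The endothelium marker Vwf fell there, although the median of the 3 endothelium markers tested was 0.72. No fibroblast marker passed in any comparison. The part of these cell types in the values of the repair genes was not tested.

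In the fit without 3 libraries, 4 repair genes fell in controls, against 8 with all libraries. Of all genes, 5670 then changed in either direction after UVB in controls, against 6343. In the same fit Pold3 was 0.80 between the exposed genotypes, beside 0.92, with an adjusted p of 0.0512 (edgeR). In the fit without 4 libraries 5 repair genes fell in controls, where 5785 of all genes changed in either direction. The counts of all genes in both fits were not split by direction, so they give no background for the falls alone. Pold3 was 1.13 between the exposed genotypes in that fit (adjusted p = 0.0305, edgeR).

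Levels can be compared between genes only per length, here as CPM per kb of exon. Usp7 stood highest, at 31.3 to 34.8 CPM per kb as group means, and Rad23b and Ddb1 followed, at 15.5 to 26.9. Pole was lowest, at 0.511 to 0.910. Xpc, at 1.09 to 2.52 CPM per kb, and Ercc8, at 1.06 to 1.40, were the least abundant genes of damage recognition and transcription-coupled repair. Pcna averaged 10.1 ± 1.91 CPM per kb in exposed knockouts, 3.91 ± 1.14 in unexposed knockouts, 8.28 ± 0.285 in exposed controls and 3.502 ± 0.643 in unexposed controls (SD, n = 4 each). The other gap-filling genes had group means of at most 7.24 CPM per kb. In exposed knockouts Rad23b, at 26.9 ± 1.80, and Ddb1, at 26.1 ± 2.65, did not differ beyond their SD, whereas Usp7 lay above both by more.

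**Figure D4:**
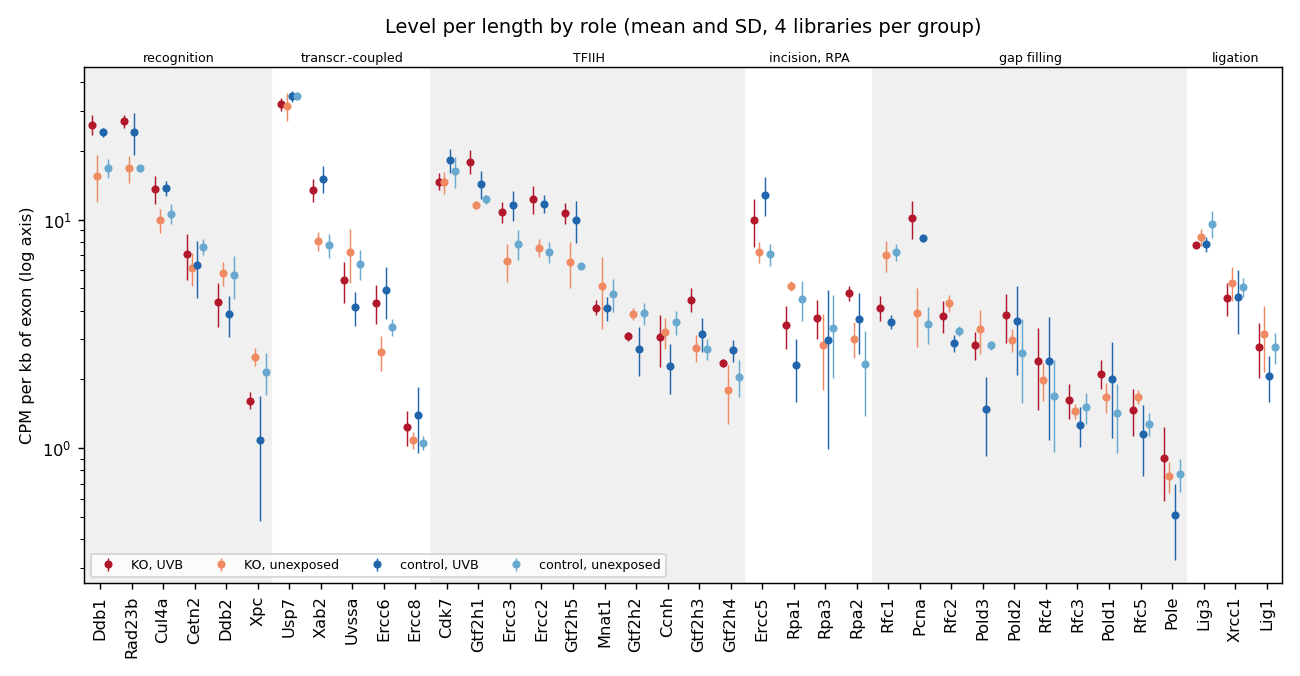
Group means of each of the 38 genes in CPM per kb of exon (log axis; bars, SD of 4 libraries), ordered by role, for exposed and unexposed knockout and control epidermis. Usp7 lies highest, at 31.3 to 34.8 CPM per kb, and Pole lowest, at 0.511 to 0.910.

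The 38 genes were also ordered by genomic span, the distance from the first to the last annotated base. The 10 genes that rose in controls had a median span of 27.2 kb (4.15 to 67.5 kb), against 36.8 kb (25.4 to 73.8 kb) for the 8 that fell. The 20 that did not pass had the shortest median, 19.5 kb, so the calls did not follow the order of span. Rfc1 and Rpa1, which fell in both genotypes, span 73.8 and 50.2 kb. Over the 38, Spearman rho between span and log2 fold change was -0.38 in knockouts and -0.37 in controls, beside -0.39 and -0.26 over 17701 genes, given as a description over genes that share libraries.

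**Figure D5:**
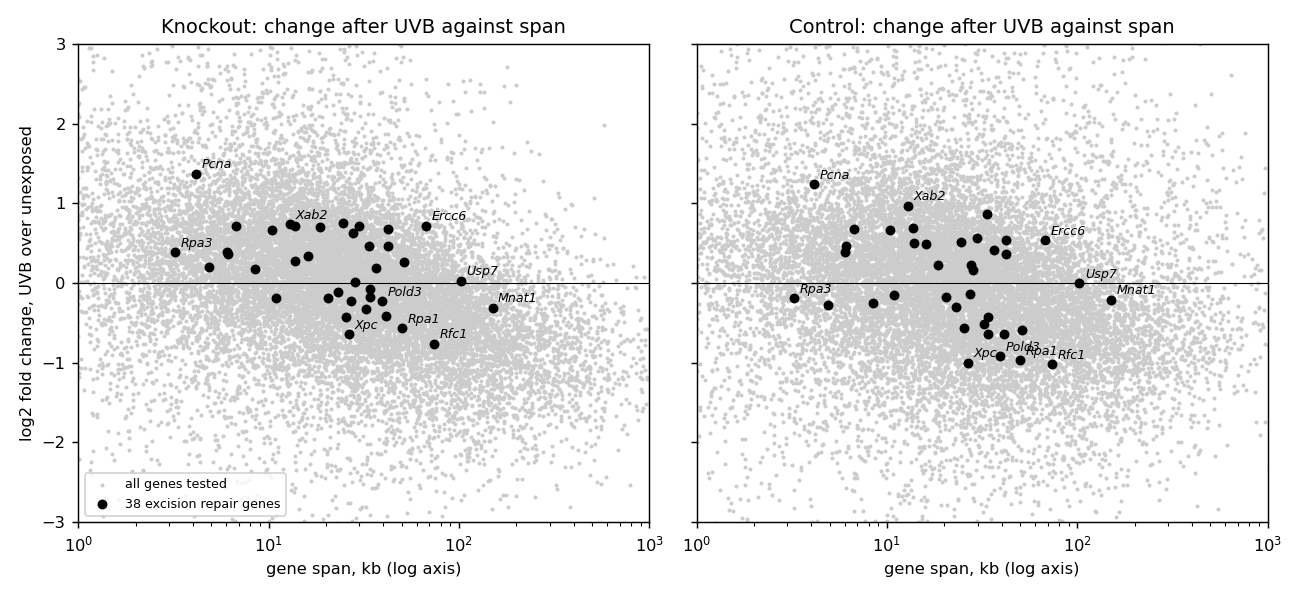
Log2 fold change after UVB against genomic span (kb, log axis) in knockout and control epidermis; each small point is a tested gene and each named point a gene of the set, and genes outside the axis limits are not drawn. Spearman rho over the 38 is -0.38 in knockouts and -0.37 in controls.

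Genes of the pathway outside the set were counted from a list of 17, all tested. In knockouts 6 rose and 1 fell after UVB, and in controls 7 rose and 3 fell, beside the shares of all genes given above. Ercc1, which with ERCC4 forms the nuclease that cuts upstream of the lesion, differed by genotype. It had 159, 141, 203 and 158 CPM in exposed knockouts, 75.3, 63.1, 63.8 and 58.9 CPM in unexposed knockouts, 55.0, 60.7, 55.6 and 49.7 CPM in exposed controls and 25.3, 21.4, 23.2 and 21.9 CPM in unexposed controls. The genotypes did not overlap in either state, and on the log2 scale Ercc1 was higher in exposed knockouts by 1.58 (adjusted p = 9.3e-07, edgeR) and in unexposed knockouts by 1.51 (adjusted p = 9.93e-07). Cd3eap, on the opposite strand, overlaps 3.41% of the exon bases of Ercc1 and had values of -0.32 after UVB and 0.25 unexposed in the same comparisons.

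Ercc4, its partner, did not pass in any comparison. Xpa, which encodes the scaffold that XAB2 binds, fell where Xab2 rose: it had 10.5, 7.03, 9.84 and 7.36 CPM in exposed knockouts, against 18.5, 14.5, 21.0 and 21.5 CPM in unexposed knockouts. Control libraries held 6.40, 8.99, 6.27 and 9.70 CPM of Xpa after UVB, against 15.9, 19.9, 23.2 and 19.7 CPM unexposed. No exposed library reached an unexposed one. Xpa changed by -1.12 in knockouts (adjusted p = 0.000205) and -1.32 in controls (adjusted p = 3.38e-05). Of the 4 polymerase subunits of that list 3 rose in both genotypes: on the log2 scale Pold4 rose by 1.37 in knockouts and 1.27 in controls, Pole4 by 1.56 and 1.45, and Pole3 by 0.80 and 0.76 (adjusted p from 6.6e-07 to 0.000302). Pole2, the fourth, was at -0.23 in knockouts (adjusted p = 0.633) and 0.03 in controls (adjusted p = 0.956). An untested gene on the same strand, AC109138.7, overlaps 24.6% of the exon bases of Pold4. Rbx1, the RING subunit of CUL4 ligases, rose by 0.36 in knockouts and 0.45 in controls.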

How the data were processed

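RNA was measured in 16 epidermis libraries. The deposited table holds whole-number read counts per Ensembl gene, made by the authors with FastQC, STAR and HTSeq, with DESeq2 also named, per the submitters' processing notes; the sources used here do not give versions, genome build or strand setting. Libraries were made with a directional kit, per the labels' protocols. Of the counts from 2 to 101, 68.8% were even, so counts may not be independent molecules.

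Symbols, coordinates and exon lengths came from GENCODE M21. The fit used R 4.3.3 and edgeR 4.0.16 (filterByExpr, TMM, robust quasi-likelihood test with 1 mean for each of the 4 groups, two-sided) and adjusted by Benjamini-Hochberg over 17741 genes with a threshold of 0.05. The SE is the log2 fold change over the square root of F. DESeq2 1.42.0 and limma 3.58.1 (voom) were alternatives, as were other scalings, no filter, the compared groups alone and leaving out each library or several together. Scripts were tested on simulated data. Python 3.11.15, pandas 2.3.3 and matplotlib 3.10.9 made tables and figures.

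Genes with values per library are those past the threshold (at most 20) and 16 fixed by name, most of which are in both groups; Rfc2, Rfc5 and Pole were added after their values were seen, and Ercc1 and Xpa come from the list of other pathway genes. The members and lists were chosen with earlier results of these data known.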

Additional observations from a re-analysis of the deposited data

Results flagged for a closer look

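In 8 of the 152 sets of 4 libraries tested (38 genes in 4 groups), the highest or lowest library lay far from the others, with a gap to the nearest of the others beyond Dixon's 95% limit as a share of the range; chance gives this in about 1 in 20 sets. Pcna had 17.5 CPM in exposed knockout library 3, below the other exposed knockout libraries at 26.4 to 27.0 CPM, and 6.12 CPM in unexposed control library 2, below the others at 8.81 to 9.34 CPM. Mnat1 had 41.7 CPM in unexposed knockout library 4, above the others at 21.1 to 23.8 CPM. Cul4a had 58.2 CPM in unexposed control library 2, below the others at 70.6 to 72.2 CPM. Rpa2 had 12.7 CPM in exposed knockout library 3, below the others at 14.7 to 15.04 CPM. Rfc2 had 22.1 CPM in unexposed control library 4, above the others at 20.01 to 20.2 CPM. Rfc3 had 5.90 CPM in exposed control library 2, above the others at 4.05 to 4.24 CPM. Lig3 had 55.0 CPM in exposed knockout library 2, below the others at 56.9 to 57.3 CPM.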

How the results depend on the processing

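Of 33 calls on the repair genes, 21 held under every alternative, none changed sign, and 12 uncalled values passed the threshold in at least 1 alternative. Under DESeq2, 742 genes differed between unexposed genotypes, 1493 between exposed genotypes and 31 between the UVB responses, against 373, 830 and 0 with edgeR. With no filter on low counts 2 genes differed between the UVB responses. In a fit of the compared groups alone, 0 repair genes were higher in exposed knockouts than in exposed controls and 5 fell after UVB in controls, against 1 and 8. Of all genes, 577 differed between the exposed genotypes and 5591 changed after UVB in controls, against 830 and 6343. Both fits that left several libraries out together were chosen after seeing the data. Without unexposed knockout library 4 and exposed control libraries 1 and 3, the counts of repair genes were 0 and 4. Of all genes, 469 then differed between exposed genotypes, 5670 changed after UVB in controls and 2 differed between the UVB responses. Without the library of fewest detected genes in each group, 5 repair genes fell in controls and 1 in knockouts (against 2), 1 (Cdk7) was lower in exposed knockouts than in exposed controls (against 0), and 219 genes differed between unexposed genotypes. Of all genes, 5785 then changed after UVB in controls and 4338 in knockouts, against 6343 and 5710. Between the exposed genotypes 751 differed, against 830. Leaving out 1 library at a time gave 134 to 435 genes differing between unexposed genotypes (fewest without unexposed control library 4), 419 to 1356 between exposed genotypes (fewest without exposed knockout library 2, most without exposed control library 2) and 0 to 2 between the UVB responses. Of the repair genes, 0 to 2 were then higher in exposed knockouts than in exposed controls, 10 to 12 rose and 1 to 2 fell in knockouts, and 7 to 10 rose and 5 to 9 fell in controls. Of all genes, 4625 to 5474 then changed after UVB in knockouts and 5520 to 6501 in controls. The counts of all genes under the alternatives were not split by direction. No paired analysis was possible because the replicate numbers follow the order of deposition and the labels pair no libraries. The common biological coefficient of variation over all genes tested was 0.445. With 4 libraries per group, low genes such as Rpa3 and Rfc4 (SE 0.44 and 0.42 after UVB) could differ and still not pass the test. The SE was smaller for other genes of the set, such as Usp7 at 0.11.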
